A study of Xenopus laevis with 3 samples.

Results

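The microRNAs described here are those encoded in the Hox gene clusters of vertebrates, miR-10 and miR-196. They were taken as the Xenopus entries (prefixes xtr, xla and xbo) named miR-10 or miR-196, with any letter or arm. The rule found 5 of the 1272 mature microRNA entries and 5 of the 178 Xenopus entries. These were xtr-miR-10a, xtr-miR-10b, xtr-miR-10c, xtr-miR-196a and xtr-miR-196b, all entries of X. tropicalis, used here for tissue of X. laevis. The tissue was the accessory olfactory bulb, a forebrain structure that receives vomeronasal input, of which neuronal tissue was cut with scalpels from 50 µm frozen sections of stage 45 larvae. The 3 groups were larvae raised in orphan, non-sibling and sibling conditions, all 15 days old by their labels, of 1 species and with no further treatment or genotype given. The labels name 15 larvae, in all or for each condition, and tissue of several larvae may thus be pooled in a library.

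Each group was 1 library (n = 1), so no difference below has a replicate check, no p-value is given, and each comparison describes these libraries and not the conditions. Intervals are 95% exact intervals that cover counting error only, since each condition has 1 library. They hold no spread between animals or libraries, nor any that amplification of the reads may add. Depths were 22538325 counts for orphan, 5188106 for non-sibling and 865654 for sibling. The sibling library was by far the shallowest, with 26.04 times its counts in the orphan and 5.99 times in the non-sibling library. Levels are given as scaled CPM, counts relative to a library size (CPM) after scaling of the libraries by trimmed means of M values (TMM). A single count stood for 0.0472 scaled CPM in the orphan, 0.148 in the non-sibling and 1.41 in the sibling library. A level of a microRNA in bulk tissue does not tell fewer cells that hold it from less of it per cell.

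Hox genes are arranged in clusters and are switched on in an ordered way along the body axis, from hindbrain to tail. The miR-10 genes lie among the Hox genes with a more anterior limit of expression, and the miR-196 genes lie farther toward the posterior end of the clusters. Both families share the posterior expression of their Hox neighbours, target several Hox messenger RNAs in vertebrates, and are known from trunk, spinal cord and limb rather than from forebrain. miR-10 is also known from blood vessels, kidney and muscle.

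The mature sequences of the 5 entries are shown because the paralogs differ at so few bases that reads of one may be counted under another. The letters in capitals are the seed, bases 2 to 8 from the 5′ end, which sets most of the target pairing of a microRNA.
xtr-miR-10a: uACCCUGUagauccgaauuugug
xtr-miR-10b: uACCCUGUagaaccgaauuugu
xtr-miR-10c: cACCCUGUagaaucgaauuugu
xtr-miR-196a: uAGGUAGUuucauguuguugg
xtr-miR-196b: uAGGUAGUuuuauguuguugg
The 3 miR-10 entries had 1 seed, ACCCUGU, which no other family of the table had, and the 2 miR-196 entries had the seed AGGUAGU, also found in no other family there. Counted from 1 at the 5′ end over the bases that both entries hold, miR-10b differed from miR-10a by the single substitution U12A. miR-10c differed from miR-10b by U1C and C13U. miR-196b differed from miR-196a by the single substitution C11U. None of these positions lies in the seed. The mature lengths were 21 to 23 bases, so the entries were compared without a correction for length. The genome positions of the microRNA genes were not used here.

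Among the 5 entries only miR-10 was present above a trace. xtr-miR-10b was the most abundant in every library, with 3813 counts in the orphan, 1358 in the non-sibling and 171 in the sibling library. It ranked 69th, 72nd and 67th of the 178 Xenopus entries in those libraries. xtr-miR-10a came second, with 1871, 899 and 54 counts in the orphan, non-sibling and sibling libraries, where it ranked 90th, 80th and 89th. xtr-miR-10c came last, with 305, 295 and 38 counts in the same order of libraries. The order miR-10b over miR-10a over miR-10c was thus found in each library, and the counting intervals of neighbours in the order did not overlap in the orphan and the non-sibling library. In the sibling library those of miR-10a (57.1 to 99.2 scaled CPM) and miR-10c (37.9 to 73.5 scaled CPM) did.

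**Figure D1:**
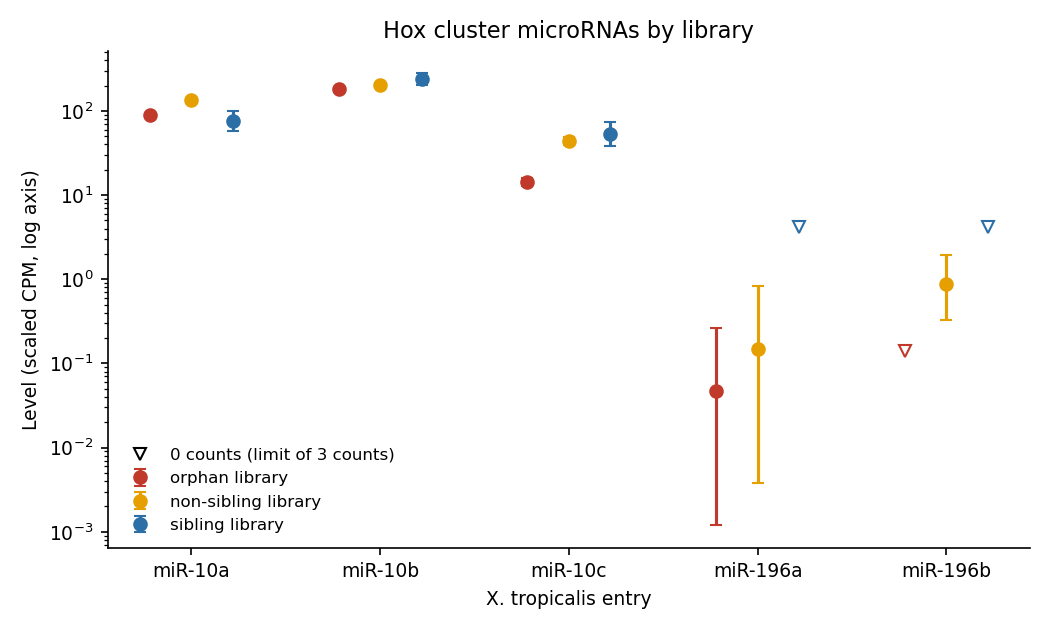
Level of the 5 Hox cluster microRNA entries (scaled CPM, log axis) in the orphan, non-sibling and sibling libraries, 1 library each; bars are 95% Poisson counting intervals and open triangles mark 0 counts, drawn at the limit of 3 counts. The 3 miR-10 entries lie between 14.4 and 240.9 scaled CPM, miR-10c is lowest in the orphan library, and the miR-196 entries lie at or below 0.891 scaled CPM wherever they were counted.

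The miR-196 entries were nearly absent. xtr-miR-196a had 1 count in the orphan, 1 in the non-sibling and 0 in the sibling library. xtr-miR-196b had 0 counts in the orphan, 6 in the non-sibling and 0 in the sibling library. Neither reached the minimum of 30 counts over the 3 libraries that was asked of an entry, so 3 of the 5 entries had enough counts to be compared. A count of 0 allows a level of up to 0.142 scaled CPM in the orphan library and of up to 4.23 scaled CPM in the sibling library, taking 3 counts as the limit. At its non-sibling level of 0.891 scaled CPM, miR-196b would have had 0.632 counts on average in the sibling library, so the 0 there does not tell the levels apart. Between the deeper libraries, the 0 orphan and 6 non-sibling counts of xtr-miR-196b gave an exact conditional interval of the ratio that reached up to 0.270. For xtr-miR-196a both libraries lay under the limit and no ratio is given.

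Summed over the 5 entries, the Hox cluster microRNAs took 0.0266% of the orphan library's counts (0.0259 to 0.0273%). Their share was 0.0493% in the non-sibling library (0.0474 to 0.0513%) and 0.0304% in the sibling library (0.0268 to 0.0343%). These totals run over entries of all species and count shared reads more than once, so the shares are relative and not parts of the reads. Xenopus entries alone held 4498417 counts in the orphan, 1035798 in the non-sibling and 185455 in the sibling library. In scaled CPM the sums were 283, 380 and 370 in the orphan, non-sibling and sibling libraries. The orphan sum was 0.764 times the sibling sum (0.675 to 0.868) and 0.745 times the non-sibling sum (0.711 to 0.780). The non-sibling sum was 1.03 times the sibling sum (0.903 to 1.17), an interval that includes 1. None of the 3 ratios of the sum reached 2-fold, and nearly all of each sum was miR-10, with 5989 of 5990 counts in the orphan, 2552 of 2559 in the non-sibling and 263 of 263 in the sibling library.

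For larvae of the orphan against the sibling condition, 1 library each was compared, so the ratios describe the libraries and not the rearing condition. xtr-miR-10c stood at 14.4 scaled CPM in the orphan library against 53.5 scaled CPM in the sibling one, a ratio of 0.269 (0.192 to 0.388). xtr-miR-10b stood at 180 against 241 scaled CPM, a ratio of 0.748 (0.641 to 0.877). xtr-miR-10a stood at 88.4 against 76.1 scaled CPM, a ratio of 1.16 (0.887 to 1.55) whose interval includes 1. Of the 3 entries with enough counts, miR-10c alone passed the rule for a lower entry, at most 0.5 times with an interval that excludes 1, and none passed the rule for a higher one. Over all 866 entries with enough counts, 15.4% were lower and 9.47% higher in the orphan library by this rule. The log2 ratios of miR-10a, miR-10b and miR-10c were 0.20, -0.42 and -1.91, with a median of 0.11 over all 866 entries. Of the 164 Xenopus entries with enough counts, 7 lay below miR-10c in this comparison.

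For larvae of the orphan against the non-sibling condition, the comparison uses the deeper pair of libraries and leaves out the shallow sibling library. xtr-miR-10c stood at 14.4 scaled CPM in the orphan library against 43.8 in the non-sibling library, a ratio of 0.329 (0.279 to 0.387). xtr-miR-10a stood at 88.4 against 133.5 scaled CPM, a ratio of 0.662 (0.611 to 0.718). xtr-miR-10b stood at 180 against 202 scaled CPM, a ratio of 0.893 (0.840 to 0.951). miR-10c again was the only one of the 3 past 2-fold, where 11.5% of the 866 entries were lower and 9.12% higher. Its log2 ratio of -1.60 had 13 of the 164 Xenopus entries below it. The orphan over sibling and the orphan over non-sibling ratios share the orphan library, so the 305 orphan counts of miR-10c enter both and the results are not independent. The direction of miR-10b depended on the scaling: it had a log2 ratio of -0.16 here, but 0.08 with upper-quartile scaling and 0.10 with the authors' quantile-normalized values. miR-10a passed 2-fold under total counts alone, at a log2 ratio of -1.06, a scaling that moved every log2 ratio of this comparison by -0.47.

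For larvae of the non-sibling against the sibling condition, none of the 3 miR-10 entries passed the rule, where 11.1% of the 866 entries were higher and 12.2% lower. xtr-miR-10a came nearest, at 133.5 scaled CPM in the non-sibling library against 76.1 scaled CPM in the sibling one, a ratio of 1.75 (1.33 to 2.35). xtr-miR-10b stood at 202 against 241 scaled CPM, a ratio of 0.837 (0.713 to 0.987). xtr-miR-10c stood at 43.8 against 53.5 scaled CPM, a ratio of 0.818 (0.582 to 1.18) whose interval includes 1. Total-count scaling moved all log2 ratios of this comparison by 0.66. Under it miR-10a passed 2-fold with a log2 ratio of 1.46, and miR-10b and miR-10c changed direction, to 0.40 and 0.36. The orphan over sibling and the non-sibling over sibling ratios share the sibling library, and the 54, 171 and 38 sibling counts of miR-10a, miR-10b and miR-10c enter both.

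**Figure D2:**
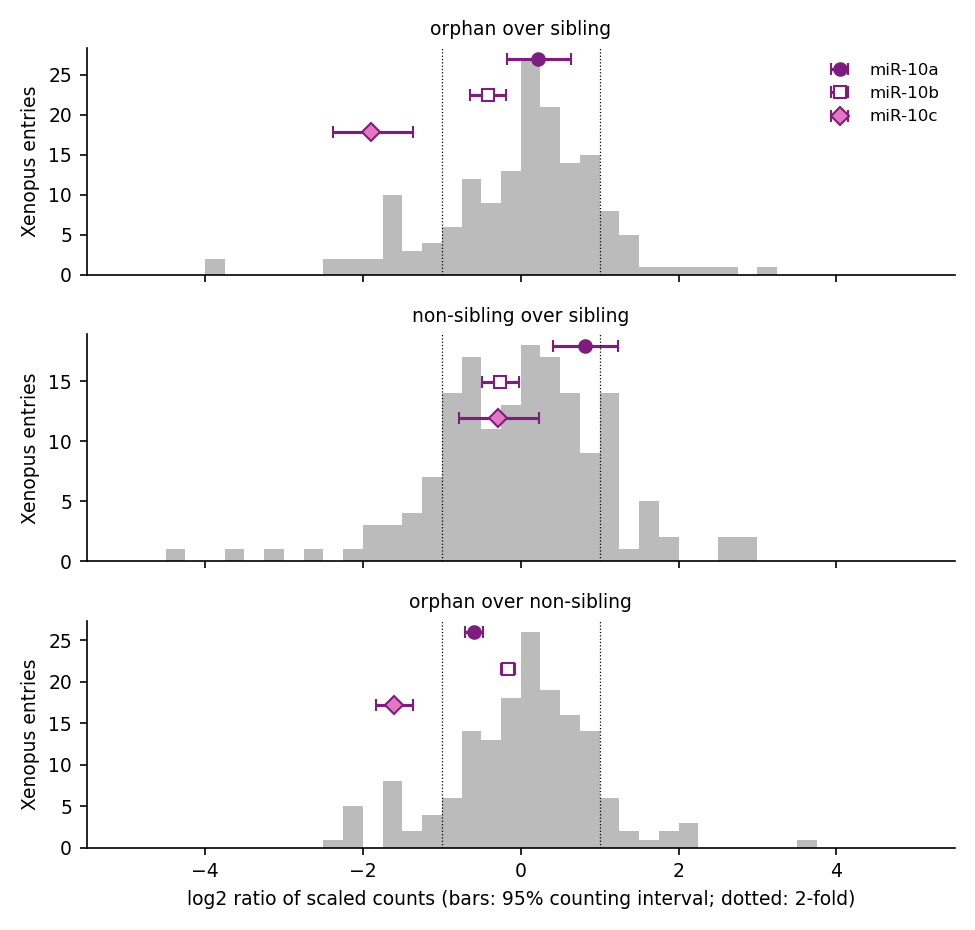
Log2 ratio of scaled counts of miR-10a, miR-10b and miR-10c (points, with 95% counting intervals) over the distribution of the other Xenopus entries with at least 30 counts (grey bars, number of entries per bin of log2 ratio), for orphan over sibling, non-sibling over sibling and orphan over non-sibling, 1 library each. Dotted lines mark 2-fold; miR-10c lies beyond the lower one at -1.91 and -1.60 in the comparisons that hold the orphan library, and at -0.31 in the other.

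Because the scaling of the libraries shifts all entries alike, the balance among the paralogs was also read within each library, where it needs no scaling. miR-10c made up 5.09% of the miR-10 counts in the orphan library (4.55 to 5.68%). Its share was 11.6% in the non-sibling library (10.3 to 12.9%) and 14.4% in the sibling library (10.4 to 19.3%). The orphan interval lies below those of the other two libraries, which overlap each other. miR-10a made up 31.2% in the orphan (30.1 to 32.4%), 35.2% in the non-sibling (33.4 to 37.1%) and 20.5% in the sibling library (15.8 to 25.9%). Here the sibling share was the lowest, and no pair of the 3 intervals overlapped. miR-10b made up 63.7% in the orphan (62.4 to 64.9%), 53.2% in the non-sibling (51.3 to 55.2%) and 65.0% in the sibling library (58.9 to 70.8%), the non-sibling share being the lowest.

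**Figure D3:**
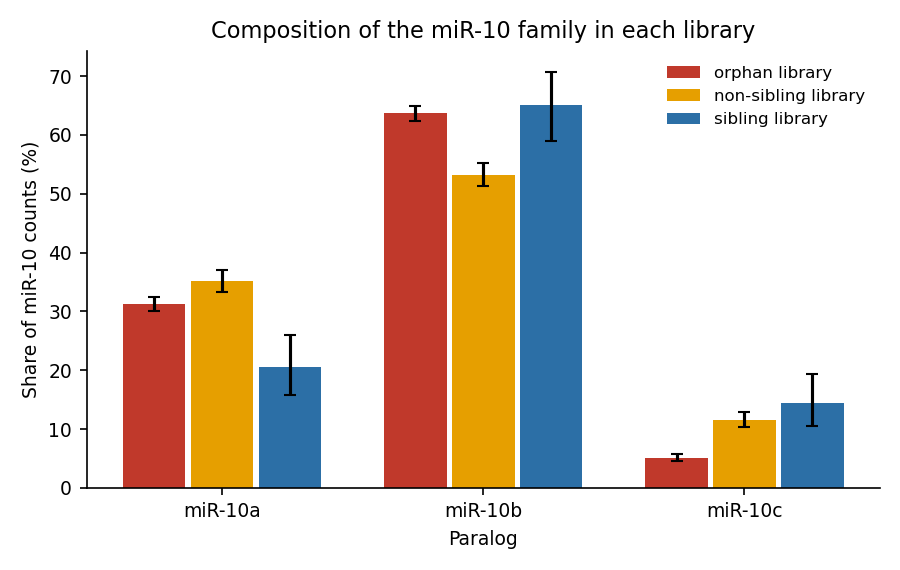
Share of the summed miR-10 counts (%) held by miR-10a, miR-10b and miR-10c in the orphan, non-sibling and sibling libraries, 1 library each, with 95% exact binomial intervals as bars. miR-10c holds 5.09% in the orphan library against 11.6% and 14.4% in the non-sibling and sibling libraries, and miR-10a holds 20.5% in the sibling library against 31.2% and 35.2% in the orphan and non-sibling libraries.

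Set against miR-10b, there were 7.999 counts of miR-10c per 100 counts of miR-10b in the orphan library, 21.7 in the non-sibling and 22.2 in the sibling library. The orphan value was 0.360 times the sibling value (exact conditional interval 0.247 to 0.536) and 0.368 times the non-sibling value (0.309 to 0.439). The non-sibling value was 0.978 times the sibling value (0.668 to 1.46). miR-10c per miR-10b was thus lower in the orphan library than in either of the others, which differed by less than their counting error. Set against miR-10a instead, there were 16.3 counts of miR-10c per 100 counts of miR-10a in the orphan library, 32.8 in the non-sibling and 70.4 in the sibling library. The orphan value was 0.232 times the sibling value (0.147 to 0.368) and 0.497 times the non-sibling value (0.414 to 0.597), and the non-sibling value was 0.467 times the sibling value (0.296 to 0.742). The orphan library was thus lowest by either measure, whereas the non-sibling and sibling libraries differed beyond counting error against miR-10a and not against miR-10b. For miR-10a there were 49.1 counts per 100 of miR-10b in the orphan library, 66.2 in the non-sibling and 31.6 in the sibling library. The orphan value was 1.55 times the sibling value (1.13 to 2.16), the non-sibling value 2.10 times the sibling value (1.52 to 2.94), and the orphan value 0.741 times the non-sibling value (0.669 to 0.821). miR-10a per miR-10b thus had its lowest value in the sibling library, which rests on 54 counts of miR-10a. How many reads with a mismatch were counted under each paralog is not known, and its part in these ratios was not tested.

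The authors' deposited table holds quantile-normalized counts and log2 ratios made from them with an offset that it does not state. Adding 102.3, the median of the quantile-normalized orphan values, to both terms gave the ratios of the authors' deposited table to within 4.14e-05 on the log2 scale, and such an offset shrinks the ratios of low entries. For xtr-miR-10c the authors' deposited table gives 144.3 in the orphan, 448 in the non-sibling and 487 in the sibling library. The table's log2 ratios have orphan as the denominator, so a positive one means lower in orphan, and for xtr-miR-10c they are 1.26 for sibling over orphan and 1.16 for non-sibling over orphan. Without an offset, the quantile-normalized counts of xtr-miR-10c give 1.76 and 1.64. For xtr-miR-10a and xtr-miR-10b the authors' deposited table gives log2 ratios of -0.20 and 0.05 for sibling over orphan and of 0.37 and -0.09 for non-sibling over orphan. In those values, too, miR-10c was the lower entry of the orphan library and the other two paralogs differed by less than 2-fold.

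The same families were listed 22 more times under other species, and these entries share reads with the Xenopus ones and are no independent support. xtr-miR-10a and 2 of them had the same counts in all libraries, 1871, 899 and 54. aca-miR-10b-5p was tied with further miR-10b entries for the most counts among entries of other species. It has the sequence of xtr-miR-10b but 3809, 1357 and 171 counts in the orphan, non-sibling and sibling libraries. So reads were assigned to entries and not simply to sequences, by a rule not given in the sources used here. aca-miR-10c-5p, named after its values were seen, had 216 counts in the orphan, 220 in the non-sibling and 27 in the sibling library. In the orphan library it was at 0.268 times its level in sibling (0.179 to 0.417) and at 0.312 times its level in non-sibling (0.258 to 0.379). Of the 16 other-species miR-10 entries with enough counts it was the only one lower in orphan over sibling, where 15.4% of all entries were lower. In orphan over non-sibling, where 11.5% of all entries were lower, 4 of the 16 were lower, the other three being miR-10d entries with identical counts of 34 in the orphan and 28 in the non-sibling library. In non-sibling over sibling, where 11.1% of all entries were higher, 1 of the 16 was higher, spu-miR-10, at a ratio of 2.05 (1.31 to 3.39), also named after its values were seen. Of the 4 miR-196 entries of other species none reached 30 counts, and dre-miR-196d had the same 6 non-sibling counts as xtr-miR-196b.

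miR-99 and miR-100 are the closest relatives of miR-10 by sequence, belong to the same ancient family and lie outside the Hox clusters. Their Xenopus entries are shown for comparison with those of miR-10, and their seed is ACCCGUA where that of miR-10 is ACCCUGU.
xtr-miR-100: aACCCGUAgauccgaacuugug
xtr-miR-99: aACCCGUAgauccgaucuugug
xtr-miR-100 had 160728 counts in the orphan, 34415 in the non-sibling and 3438 in the sibling library, and ranked 7th, 9th and 10th of the Xenopus entries. Its level of 7593 scaled CPM in the orphan library was 1.57 times that of the sibling library (1.52 to 1.62) and 1.49 times that of the non-sibling library (1.47 to 1.504). xtr-miR-99 had 6324, 1391 and 210 counts, and in the orphan library it was at 1.01 times its sibling value (0.880 to 1.16) and at 1.45 times its non-sibling value (1.36 to 1.53). Neither relative passed 2-fold in any of the 3 comparisons (0 of 2 higher and 0 of 2 lower in each).

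The tissue label was read against lists of microRNAs known from neurons and from other tissues, Xenopus entries alone. All 11 neuronal entries (miR-9, miR-124, miR-128, miR-129, miR-137, miR-153 and miR-218) were counted in every library, and their levels summed to 16128, 18824 and 9677 scaled CPM in the orphan, non-sibling and sibling libraries. That was 57.0, 49.5 and 26.1 times the sum of the Hox cluster entries in the same libraries. All 10 muscle entries were also counted in every library, with sums of 5463, 3184 and 5253 scaled CPM. The sums of the 3 skin entries were 3022, 4268 and 4145 scaled CPM and those of the 5 entries of mesenchyme and cartilage 4190, 2974 and 3238 scaled CPM. The 2 blood entries summed to 18.9, 32.2 and 8.45 scaled CPM. The 4 entries of digestive organs summed to 460 scaled CPM in the orphan, 1315 in the non-sibling and 1330 in the sibling library.

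The digestive organ and skin lists had their lowest sums in the orphan library, as the Hox cluster entries did. The neuron and blood sums were lowest in the sibling library, and those of muscle and of mesenchyme and cartilage in the non-sibling library. These orders of the tissue lists were read under the main scaling only. Total counts move all log2 ratios of non-sibling over sibling by 0.66, so the lowest library of a list can depend on the scaling. Of the 4 digestive organ entries 3 had enough counts. All 3 were lower in orphan over sibling and in orphan over non-sibling, and none was higher or lower in non-sibling over sibling. The digestive organ entry with the most counts, xtr-miR-215, had an orphan over sibling ratio of 0.346 (0.315 to 0.380) and an orphan over non-sibling ratio of 0.311 (0.299 to 0.323). In skin 1 of 3 entries was lower in each of these comparisons. The skin entry with the most counts, xtr-miR-205a, was not lower by the rule. Its orphan over sibling ratio was 0.695 (0.668 to 0.724) and its orphan over non-sibling ratio 0.797 (0.785 to 0.810). No entry of the lists of neurons, muscle, blood or mesenchyme and cartilage was lower in either comparison. Their entries with the most counts were xtr-miR-9-5p, xtr-miR-133a, xtr-miR-451 and xtr-miR-199a-3p. Over all 866 entries, 15.4% were lower in orphan over sibling, 11.5% in orphan over non-sibling and 12.2% in non-sibling over sibling. The neuronal list had 3 of 11 entries higher in orphan over sibling, 4 of 11 in non-sibling over sibling and 1 of 11 in orphan over non-sibling. The muscle list had none of 10 entries higher in orphan over sibling, 2 of 10 lower in non-sibling over sibling and 4 of 10 higher in orphan over non-sibling. In the blood list the only entry with enough counts, xtr-miR-451, was higher in orphan over sibling and in non-sibling over sibling. Both ratios rest on 3 sibling counts, the number taken as the limit. In the skin list 1 of 3 was higher in non-sibling over sibling, and in the mesenchyme and cartilage list 1 of 5 was higher in orphan over non-sibling. The shares higher over all entries were 9.47% in orphan over sibling, 11.1% in non-sibling over sibling and 9.12% in orphan over non-sibling. The part of other tissues in the level of miR-10c was not tested. None of the markers of these lists was at 0 in any library, whereas miR-196b was at 0 in the orphan library and both miR-196 entries in the sibling library. Of the 178 Xenopus entries, 175 were counted in the orphan, 174 in the non-sibling and 166 in the sibling library. At the depth of the sibling library a 0 of miR-196b does not tell its level from that of the non-sibling library.

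**Figure D4:**
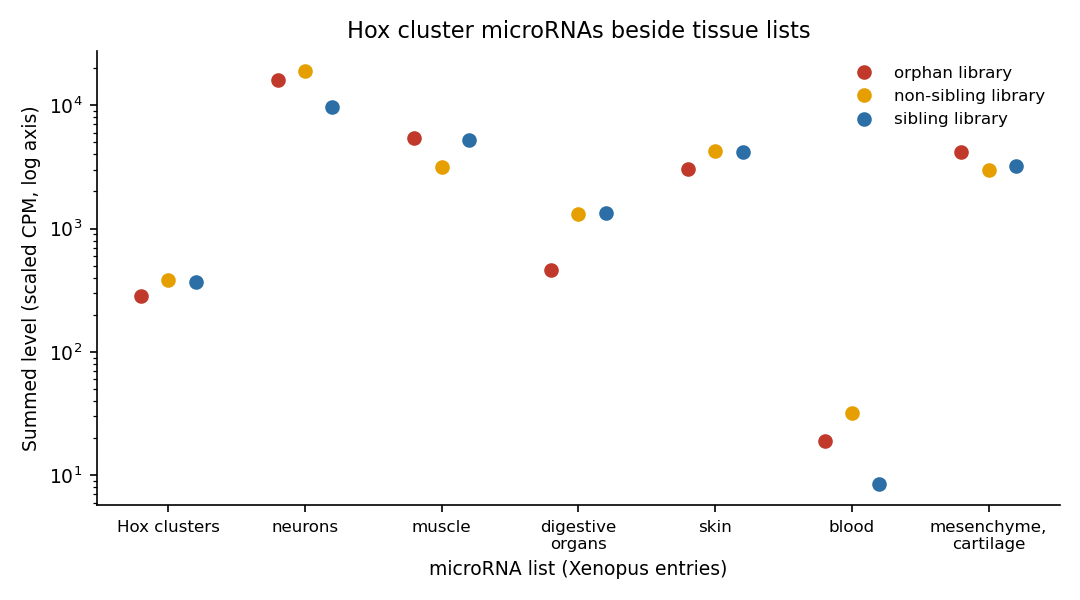
Summed level (scaled CPM, log axis) of the 5 Hox cluster entries and of 6 tissue lists of Xenopus microRNAs, 1 point per library, with orphan, non-sibling and sibling from left to right in each list. The Hox cluster sums of 283, 380 and 370 scaled CPM lie below all lists but blood. The sums of the Hox cluster, digestive organ and skin entries are each lowest in the orphan library, at 283, 460 and 3022 scaled CPM.

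The entries with the pattern most like that of each miR-10 paralog were sought among the 143 other Xenopus entries with at least 150 counts, by the distance between their log2 ratios of orphan over sibling and of non-sibling over sibling. The measure rests on 3 libraries. For miR-10b the 5 nearest were miR-205a, let-7f, miR-365, miR-98 and xla-miR-428, at distances of 0.12 to 0.33. For miR-10a they were miR-200b, miR-429, miR-221, miR-23b and miR-132, at 0.03 to 0.23. For miR-10c, added after its values were seen, they were miR-192, miR-191, miR-215, let-7e and miR-425-5p, at 0.36 to 0.65. Of the 5 neighbours of miR-10c, miR-192 and miR-215 are on the digestive organ list, and miR-191, let-7e and miR-425-5p are on none of the tissue lists. That the paralogs have different neighbours only restates that their own log2 ratios differ.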

How the data were processed

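The members, lists, rules and alternatives were chosen with earlier results of these data known. The deposited table gives whole-number read counts per mature microRNA entry and library, per the file headers, with no normalization. The authors also deposited a signal, quantile-normalized counts, and log2 ratios made from it between libraries with an offset not stated in the table. How reads were aligned and counted, and against which microRNA release or genome build, is not given in the sources used here, and the labels name a messenger RNA kit for the libraries. Counts were scaled by TMM over all entries and all 3 libraries (edgeR 4.0.16 in R 4.3.3), with factors of 0.939 for orphan, 1.30 for non-sibling and 0.820 for sibling. Column totals count shared reads more than once and are a relative depth only. The unnamed line of the table, which holds a median, was left out. Ratios have an exact conditional interval (Clopper-Pearson on the first library's share of the counts of the pair). Log2 ratios have 0.5 added to each count. An entry needed at least 30 counts over the 3 libraries and was called at 2-fold or more (0.5 or less) with an interval that excludes 1. A count of 0 was read as up to 3 counts. Ratios of paralog ratios are conditional odds ratios (scipy 1.17.1 in Python 3.11.15). The interval calculation was tested on simulated counts that held counting error alone, as the intervals assume. That test says nothing of spread between libraries or of shared reads. Named entries were all members, the most abundant entry of other species per family (the first by name in a tie) and the most abundant of each tissue list. The 5 nearest entries of the 2 most abundant members were named as well. Alternatives were total-count, upper-quartile, median-of-ratios (DESeq2 1.42.0) and Xenopus-only TMM scaling, the quantile-normalized values, an offset of 5, other count minimums and merged identical sequences. A further pair of TMM settings was added after seeing the data.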

Additional observations from a re-analysis of the deposited data

How the results depend on the processing

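miR-10c was lower by at least 2-fold in the orphan library under all 11 alternatives run, with log2 ratios of -2.06 to -1.71 over sibling and of -2.07 to -1.36 over non-sibling, and the number of entries called in orphan over sibling was 1 under each. For the quantile-normalized values the call used the 2-fold limit alone, without an interval. The offset of 5 and the other count minimums could not change the call of miR-10c. The call uses no offset, and miR-10c had 638 counts over the 3 libraries. TMM over the compared libraries alone gave the same log2 ratios as the main scaling in both comparisons with orphan, so it was no separate check of this call. The log2 ratio of the summed counts of the 5 entries was -0.39 for orphan over sibling, 0.03 for non-sibling over sibling and -0.43 for orphan over non-sibling. Under total counts these were -0.20, 0.70 and -0.89. The number of entries past 2-fold then became 1 (from 0) in non-sibling over sibling and 2 (from 1) in orphan over non-sibling. Total counts moved every log2 ratio by 0.66 and by -0.47 in these comparisons. The share of all entries past 2-fold under total counts is not given here, so the added calls have no background beside them. Under upper-quartile scaling the log2 ratios of the sums were -0.22 for non-sibling over sibling, a change of direction, and -0.18 for orphan over non-sibling. The authors' quantile-normalized values gave -0.14 for orphan over sibling and -0.23 for orphan over non-sibling. For orphan over non-sibling, TMM over Xenopus entries gave -0.55, and TMM over entries with at least 30 counts, chosen after seeing the data, gave -0.50. Without a filter 2 entries were past 2-fold there, the added one being miR-196b. TMM over the compared libraries alone, also added later, moved the ratios only in non-sibling over sibling, and changed no call there. The scalings other than quantile normalization differ by construction in 1 factor per library, whereas quantile normalization moves entries by unlike amounts. The cause of the changes was not tested otherwise. No paired analysis was possible because each condition has 1 library, and leaving out a replicate was not possible for the same reason. The sibling library, with 38 to 171 counts per miR-10 entry, limits both comparisons that use it.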
